A study of Homo sapiens with 5 samples.

Results

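The genes examined here were 46 genes of the WNT pathway, taken by symbol from a list of ligands, receptors, secreted antagonists, destruction-complex members, nuclear factors and feedback targets, and 43 of them were found among the 30476 genes of the deposited count table through their Ensembl identifiers. The expression of the other 3, WNT7A, WNT16 and SFRP2, was not analysed here. The samples were 5 RNA-seq libraries of TOV21G, an established ovarian clear cell carcinoma line that carries mutated ARID1A, a subunit gene of the SWI/SNF chromatin remodeller. The parental cells were untreated (1 library), and the EZH2 inhibitor-resistant (EIR) cells were clone 3 and clone 4, each grown without drug (1 library per clone) and treated with the EZH2 inhibitor GSK126 (1 library per clone). Both clones carry the parental ARID1A background and were derived by stepwise exposure to rising GSK126 (5, 10, 15 and 20 uM). An untreated EIR library is thus a line with a long history of the drug. The dose and the time of the GSK126 treatment behind the treated libraries are not given in the sources used here. Each clone is a separate line and its libraries are not independent clones, so a clone counts as 1 origin of resistance, and the p-values below measure the spread between these libraries only.

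WNT ligands are secreted proteins that bind Frizzled (FZD) receptors together with the coreceptors LRP5 and LRP6. Without a ligand, a complex built on AXIN1 and APC marks beta-catenin (CTNNB1) for destruction, and with a ligand beta-catenin accumulates and acts with TCF/LEF factors on target genes, among them the feedback inhibitors AXIN2, RNF43, ZNRF3 and NKD1. R-spondins bind LGR receptors and hold back RNF43 and ZNRF3, which remove Frizzled from the surface, whereas the DKK and SFRP families act outside the cell, and WNT5A signals mostly without beta-catenin. In ovarian cancer the pathway is best known from endometrioid tumors with mutated CTNNB1.

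The libraries held 25479238 to 30764963 counts and 15588 to 16432 genes with at least 10 counts. Marker levels are given as counts without division by a size factor. Epithelial markers were high in all libraries, with summed counts of 22399 to 28127 over 5 of 6 listed genes. EPCAM, however, was at 398 in parental cells, 426 and 498 in clone 3, and 0 and 1 in clone 4. Markers of other cell types were low. The fibroblast markers (4 of 4 in the table) summed to 43 to 128, the leukocyte markers (2 of 3) to 4 to 29, and the only endothelial marker in the table, CDH5, had 4 to 10. The log2 ratio of each EIR library to the parental library fell with the GC content of the transcript (Spearman's rho of -0.398 to -0.493 across 11377 genes, which are not independent replicates), and calls that were lost or gained with a correction for this trend are named with the genes concerned. In these bulk libraries fewer cells that express a gene and less RNA per cell cannot be told apart.

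Normalized counts below are counts divided by the size factor of the library. Of the 43 genes, 24 reached 100 normalized counts as the mean over the 5 libraries (well measured genes below). Another 8 (WNT2, WNT3A, WNT4, WNT9A, WNT11, SFRP4, WIF1 and LGR5) had at most 10 counts in every library, and 11 lay between. Levels per kilobase of exon used the merged exons of all annotated transcripts of a gene, 11759 bases for CTNNB1 and 2221 for DKK1. This length can exceed that of the transcript expressed, so the order between genes depends on the annotation and is rough. In parental cells it began with CTNNB1 at 1854 and LGR4, a receptor for R-spondins, at 1156. FZD6 at 576, DKK1 at 561, LRP6 at 507 and WNT5A at 469 followed. The neighbours FZD6, DKK1, LRP6 and WNT5A cannot be ordered beyond error, since the parental cells gave 1 library. WNT5A was the ligand with the highest level in every group by this measure, with 90.4 in clone 3 and 63.9 in clone 4, followed in parental cells by WNT7B with 59.3. The plot of levels per exon length shows the 24 genes by role.

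**Figure D1:**
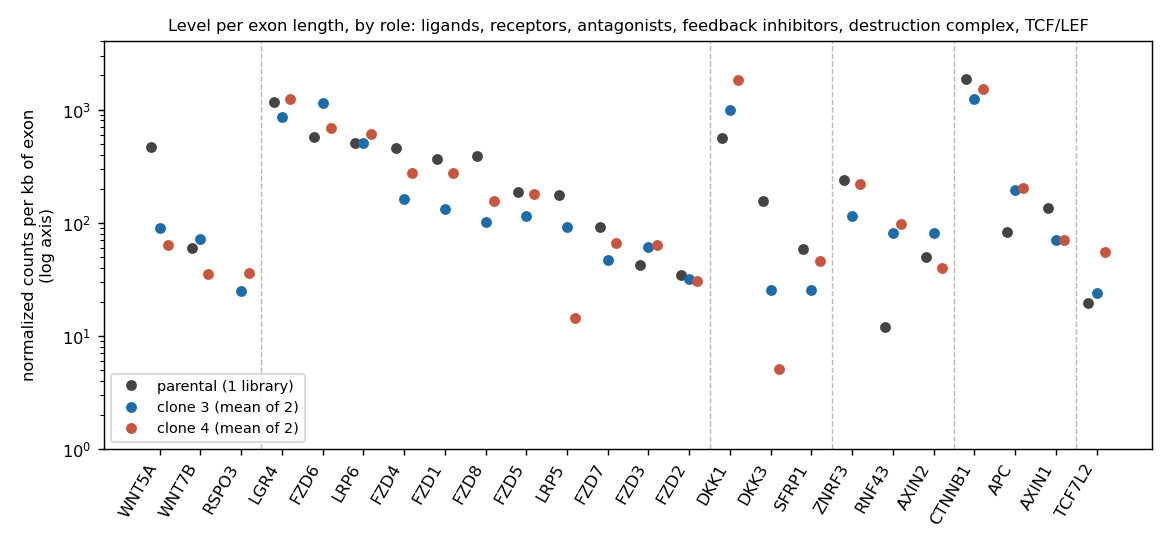
Normalized counts per kilobase of exon (log axis) for the 24 well measured WNT pathway genes, in role order, with 1 point for the parental library and 1 for the mean of the 2 libraries of each clone, without error bars. RSPO3 had 0 counts in parental cells and therefore has no dark grey point, and DKK3 and LRP5 lie far lower in clone 4, at 5.04 and 14.4, than in parental cells, at 156 and 176.

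Promoter sequences are given for RSPO3 and WNT10A, from among the genes with an on or off pattern. Among the listed genes with a promoter window, the only promoter that held the TCF/LEF core motif is given too. The RefSeq windows run from 250 bases before to 50 after the start in build GRCh38.p14, and 32 of the 46 genes matched by symbol, with 40 windows. AXIN2, NKD1, ZNRF3, LGR5 and NOTUM were among the genes without a window, so their promoters were not searched. The windows include those of WNT7A, WNT16 and SFRP2, whose expression was not analysed here. The motifs CTTTGAT and CTTTGAA were searched on both strands. They cannot overlap on the same strand. Of all 35116 windows of this length, 2409 (6.86%) held a match, against 1 of the 40 windows of the listed genes, in DKK1, where CTTTGAA begins 95 bases before the start. A match is a description of letters and no more. RSPO3, which had no count in parental cells, is shown with its CpG dinucleotides, the bases that can be methylated, in capitals (chr6:127118421-127118720, plus strand, 13 CpG). WNT10A, present in clone 3 and without a count in clone 4, is shown in the same way (chr2:218880602-218880901, plus strand, 30 CpG). LEF1, which was also on and off, is not printed (chr4:108166252-108166551, minus strand, 9 CpG). The median window of all genes held 14 CpG and that of the listed genes 25. In the DKK1 window (chr10:52314031-52314330, plus strand) the capitals mark the motif.
RSPO3: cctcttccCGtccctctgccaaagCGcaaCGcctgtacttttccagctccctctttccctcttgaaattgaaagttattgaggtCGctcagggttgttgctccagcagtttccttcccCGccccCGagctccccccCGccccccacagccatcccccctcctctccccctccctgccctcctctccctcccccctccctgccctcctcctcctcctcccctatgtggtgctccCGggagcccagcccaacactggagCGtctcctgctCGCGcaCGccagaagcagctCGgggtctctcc
WNT10A: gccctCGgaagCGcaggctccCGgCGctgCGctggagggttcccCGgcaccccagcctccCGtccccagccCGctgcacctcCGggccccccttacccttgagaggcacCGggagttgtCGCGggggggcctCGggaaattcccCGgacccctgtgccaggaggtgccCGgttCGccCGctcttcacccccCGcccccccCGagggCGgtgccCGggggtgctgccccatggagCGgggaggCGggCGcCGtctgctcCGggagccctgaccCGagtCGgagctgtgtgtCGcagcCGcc
DKK1: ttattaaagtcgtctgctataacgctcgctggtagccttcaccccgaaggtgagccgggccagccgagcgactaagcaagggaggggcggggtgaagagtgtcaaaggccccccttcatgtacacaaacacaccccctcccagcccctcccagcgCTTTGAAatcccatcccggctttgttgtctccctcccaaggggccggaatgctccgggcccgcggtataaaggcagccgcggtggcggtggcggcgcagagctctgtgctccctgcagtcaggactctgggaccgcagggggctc

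The first comparison asked which WNT pathway genes differed between the 4 EIR libraries and the parental library. RSPO3, RNF43, APC and DKK1 were higher and WNT5A, FZD8, FZD4, DKK3 and AXIN1 lower in EIR cells, by DESeq2's Wald test at an adjusted p under 0.05. These were 9 of the 32 listed genes with an adjusted p, or 28.1%, beside 25.5% of all 16288 genes tested (12.4% higher and 13.2% lower), so the share by this test lay near that of all genes. The median log2 fold change of the 32 genes was -0.23, also with RSPO3 at its lower bound, against 0.00 over all genes tested. With the GC correction 4 of 33 genes were called (12.1%, 3 higher and 1 lower: APC, RNF43, RSPO3 and WNT5A), beside 19.5% of all genes (10.2% higher and 9.24% lower). With total count scaling there were 7 (4 higher, 3 lower), beside 23.9% of all genes (13.6% higher and 10.3% lower). With edgeR's quasi-likelihood test there were 7 of 43 (16.3%, 3 higher and 4 lower, without DKK1 and FZD4), beside 5.73% of all 30476 genes, none of which it left out (2.13% higher and 3.6% lower). The members' share was thus below that of all genes with the GC correction. In edgeR it was above, but of the 30476 genes there 11564 reached a mean of 100 normalized counts, against 24 of the 43 listed. The edgeR share was therefore not set against genes of like level, and no excess can be read from it. The spread in this comparison comes from the EIR libraries, since there was 1 parental library.

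Among the ligands, RSPO3 (R-spondin 3, an amplifier of WNT signalling through LGR receptors; chr6:127439816-127520626 in GRCh37, plus strand) went from 0 counts in the parental library to 128 and 121 normalized counts in untreated and treated clone 3 and to 116 and 241 in untreated and treated clone 4. All EIR libraries lay above the parental one, and treated clone 4 stood above the other 3. Set against a floor of 3 counts in the parental library, RSPO3 was at least 49.6-fold higher in EIR cells (adjusted p = 7.319e-05, DESeq2). WNT5A (chr3:55499743-55524567, minus strand) was at 3354 in parental cells, 704 and 589 in untreated and treated clone 3, and 429 and 485 in untreated and treated clone 4. Every EIR library was thus several-fold lower, with a mean of 552 ± 121 (SD, n = 4). DESeq2 gave a log2 fold change of -2.60 (SE 0.33, adjusted p = 1.592e-13). RSPO3 and WNT5A were the called genes among the 6 ligands with an adjusted p.

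Within the receptors, FZD8 and FZD4 were called among 11 tested, both lower. FZD8 was at 1577 in parental cells, 323 and 497 in untreated and treated clone 3, and 559 and 686 in untreated and treated clone 4. Every EIR library lay under the single parental library, which is a description and no test of its own. The log2 fold change was -1.61 (SE 0.42, adjusted p = 0.00114, DESeq2). FZD8 transcripts are rich in GC (64.6%), and with the GC correction the value was -1.10 (adjusted p = 0.0626, the highest over 11 alternatives that otherwise went down to 5.988e-05). FZD4, a receptor that also binds the non-WNT ligand norrin, was at 3348 in parental cells, 1203 and 1170 in clone 3, and 2023 and 2060 in clone 4, here and below with the untreated library first. Its libraries fell into levels by clone, all of them under the parental one. The log2 fold change was -1.05 (SE 0.41, adjusted p = 0.0413, DESeq2), and 7 of 11 alternatives took the adjusted p above 0.05, with a range of 0.0126 to 0.110, among them leaving out either library of clone 3 and the GC correction (-1.03, adjusted p = 0.0549). FZD4 overlaps PRSS23 on the opposite strand, and whether the counting used strand is not given in the sources used here.

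Among the secreted antagonists DKK1 was higher and DKK3 lower. DKK1, which binds LRP5 and LRP6 and keeps them from WNT ligands, was at 1245 in parental cells, 1670 and 2709 in clone 3, and 3847 and 4239 in clone 4. The clone 4 libraries were the highest, and untreated clone 3 was the nearest to the parental library. The log2 fold change was 1.32 (SE 0.49, adjusted p = 0.0313, DESeq2), with adjusted p of 0.173 in edgeR and a range of 9.422e-05 to 0.173 over 11 alternatives, and it was not called without either library of clone 4 or with the GC correction (1.18, adjusted p = 0.0744). DKK3, a divergent family member, fell from 1871 in parental cells to 318 and 289 in clone 3 and to 54.9 and 65.6 in clone 4. The log2 fold change was -3.36 (SE 1.32, adjusted p = 0.0441, DESeq2), and the call was lost in 6 of 11 alternatives, among them leaving out treated clone 3 or either library of clone 4 and the GC correction (-3.06, adjusted p = 0.0791), with adjusted p of 0.00436 to 0.203. DKK3 overlaps USP47, which had far more counts, on the opposite strand, and the same reservation on strand applies.

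APC and AXIN1, scaffolds of the destruction complex, moved in opposite directions. APC (chr5:112043215-112181936, plus strand) rose from 1122 in parental cells to 2449 and 2833 in clone 3 and 2694 and 2822 in clone 4, a narrow range in the EIR libraries (2699 ± 179, SD, n = 4). On the log2 scale APC changed by 1.27 (SE 0.18, adjusted p = 6.142e-11, DESeq2). AXIN1 (chr16:337440-402723, minus strand) fell from 1013 to 512 and 554 in clone 3 and to 522 and 541 in clone 4, again with little spread (532 ± 19.0, SD, n = 4). Its log2 fold change was -0.93 (SE 0.18, adjusted p = 6.599e-06, DESeq2), and it was -0.45 with the GC correction (adjusted p = 0.0659, the highest over 11 alternatives, the lowest being 5.473e-07). AXIN1 transcripts hold 63.5% GC and APC transcripts 40.5%. CTNNB1, which encodes beta-catenin itself, was at 21795 in parental cells, 14406 and 14740 in clone 3, and 18401 and 17018 in clone 4, and its log2 fold change of -0.43 (SE 0.21) did not pass (adjusted p = 0.127, DESeq2).

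RNF43, a membrane ubiquitin ligase that clears Frizzled receptors, was the called gene among 5 feedback inhibitors and targets. RNF43 (chr17:56431037-56494956, minus strand) rose from 75.5 normalized counts in parental cells to 548 and 475 in clone 3 and to 543 and 688 in clone 4. The EIR libraries lay close together and far above the parental value. By DESeq2 the rise was 2.90 on the log2 scale (SE 0.33, adjusted p = 1.625e-16). Of the 4 TCF/LEF factors (LEF1, TCF7, TCF7L1 and TCF7L2) DESeq2 called 0 over both clones together, with 2 at an unadjusted p under 0.05, and edgeR called 0, with 1 at an unadjusted p under 0.05. WNT5A, RSPO3, RNF43 and APC were past the threshold in every alternative run for this comparison. The 23 tested genes that did not pass ran from -2.87 (TCF7L1) to 6.49 (LEF1), and the 15 of them that were well measured from -1.74 to 1.03.

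**Figure D2:**
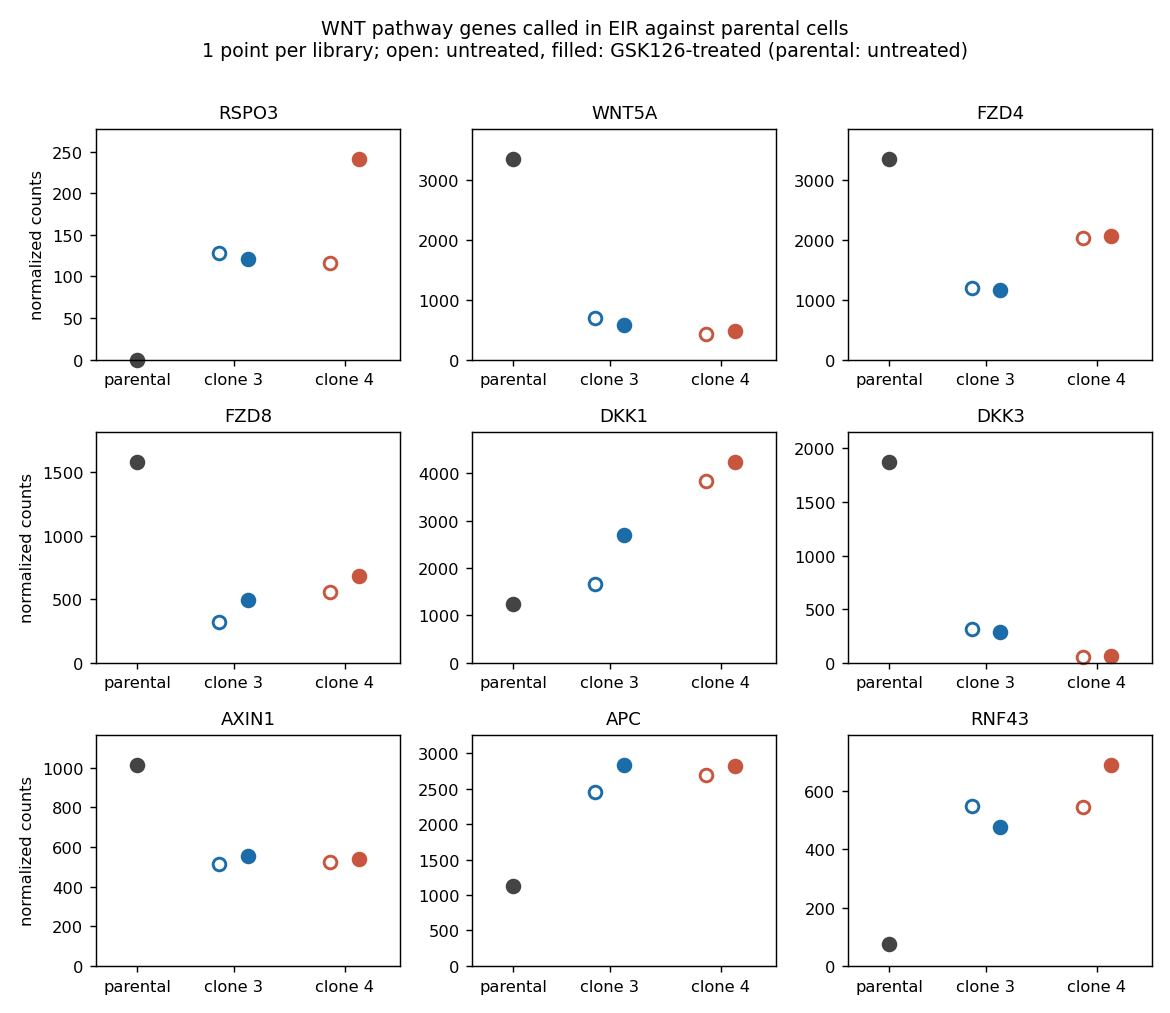
Normalized counts of the 9 WNT pathway genes called in EIR against parental cells, with 1 point per library (dark grey parental, blue clone 3, red clone 4; open untreated, filled treated with GSK126) and each axis starting at 0. RSPO3, RNF43, APC and DKK1 are higher in all 4 EIR libraries, and the 5 lower genes show each EIR library under the parental one. The genes shown were picked by their call, so this order against a single parental library is no separate support.

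Each clone was then compared with the parental library on its own. In clone 3, 20 of 34 tested genes were called, or 58.8%, beside 29.2% of all genes (14.7% higher and 14.5% lower), with 7 higher and 13 lower. In clone 4, 14 of 32 were called, or 43.8%, beside 32.9% of all genes (14.7% higher and 18.3% lower), with 5 higher and 9 lower. With the GC correction the clone 3 count was 19, with 9 higher and 10 lower, beside 26.2% of all genes (14% higher and 12.2% lower), where AXIN2 and NKD2 were gained and AXIN1, FZD7 and LRP5 lost. The clone 3 count fell without either of its libraries, and the share of all genes called in those fits was not taken. In clone 3 the calls of AXIN1, CTNNB1, FZD5, FZD7, LGR4, LRP5 and SFRP1 were lost without either of its libraries, those of FZD6 and WNT10A without the treated one, and that of DKK1 without the treated one or either library of clone 4. In clone 4 the calls of DKK1 and TCF7L2 were lost without its treated library, that of WNT6 without its untreated one and that of TCF7L1 without either of them or without untreated clone 3. The contrasts share the parental library, so values are given for each clone side by side, and the difference between the clones was tested directly in the comparison of clone 4 with clone 3. There 13 of 31 tested genes were called, or 41.9%, beside 9.81% of all genes (3.3% higher and 6.52% lower). Of these, 6 were higher in clone 4 (DKK1, FZD1, FZD4, FZD5, LGR4 and ZNRF3) and 7 lower (AXIN2, DKK3, FZD6, LEF1, LRP5, NKD2 and WNT7B). The longer list of other WNT pathway genes described below had 15 of 60 called between the clones (25%). Against parental cells it had 29 of 58 in clone 3 (50%) and 28 of 58 in clone 4 (48.3%). Both lists were chosen with earlier results of these data known. The count of 13 fell without either library of clone 3, and the share of all genes in those fits was again not taken. The epithelial marker EPCAM, at 0 and 1 counts in clone 4, moved with this contrast, and its part in these differences was not tested.

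Receptors made up 6 of those 13 genes. LRP5, the coreceptor, was at 1090 in parental cells, 501 and 630 in clone 3, and 55.9 and 122 in clone 4. The levels formed steps without overlap. Clone 4 differed from parental cells by a log2 fold change of -3.62 (SE 0.37, adjusted p = 4.541e-21) and from clone 3 by -2.76 (SE 0.33, adjusted p = 4.130e-15), both from DESeq2. Clone 3 differed from parental cells by -0.95 (SE 0.35, adjusted p = 0.0275, DESeq2), which was -0.56 with the GC correction (adjusted p = 0.271, in a range of 0.00396 to 0.354 over 10 alternatives). LRP6, the other coreceptor, had 5256 in parental cells and 4922 to 6268 in the EIR libraries, with log2 fold changes of -0.02 (SE 0.17) in clone 3 and 0.25 (SE 0.17) in clone 4.

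FZD1 was at 2520 in parental cells, 882 and 926 in clone 3, and 1929 and 1819 in clone 4. It was lower in clone 3 than in parental cells (-1.48, SE 0.19, adjusted p = 4.924e-13, DESeq2), and the value of -0.43 (SE 0.19) in clone 4 did not pass (adjusted p = 0.0690, DESeq2), whereas edgeR called it (-0.44, adjusted p = 0.0447). The difference between the clones was 1.04 (SE 0.20, adjusted p = 3.432e-06, DESeq2) on the log2 scale. FZD4 was likewise higher in clone 4 than in clone 3, by 0.78 (SE 0.19, adjusted p = 8.536e-04, DESeq2), with both clones under the parental level (-1.50 and -0.71), and the call between the clones was lost without treated clone 3.

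FZD5, FZD6 and LGR4 differed between the clones by less. FZD5 had 1318 in parental cells, 750 and 863 in clone 3, and 1169 and 1373 in clone 4, a difference of 0.65 (SE 0.21, adjusted p = 0.0212, DESeq2). FZD6, a Frizzled also known from planar cell polarity, had 2343 in parental cells, 3888 and 5351 in clone 3, and 3051 and 2579 in clone 4, so it was the receptor that was higher in clone 3 than in parental cells (0.98, SE 0.22, adjusted p = 6.391e-05, DESeq2). Its difference between the clones was -0.71 (SE 0.20, adjusted p = 0.00699, DESeq2), and edgeR gave an adjusted p of 0.0837 (range over 11 alternatives 4.763e-04 to 0.427). LGR4 had 7344 in parental cells, 5286 and 5658 in clone 3, and 8303 and 7385 in clone 4, with clone 4 higher than clone 3 by 0.51 (SE 0.17, adjusted p = 0.0271, DESeq2) and edgeR at 0.114 (range 1.070e-04 to 0.415). The call between the clones was lost for LGR4 without either library of clone 3, for FZD5 without either library of clone 3 or treated clone 4, and for FZD6 without untreated clone 4 or treated clone 3.

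FZD7 and FZD8 were lower in clone 3 than in parental cells, with log2 fold changes of -1.00 (SE 0.32, adjusted p = 0.00973) and -1.94 (SE 0.29, adjusted p = 3.611e-10) from DESeq2. FZD7 was at 424 in parental cells, 193 and 231 in clone 3, and 303 and 306 in clone 4, and its GC-corrected value in clone 3 was -0.70 (adjusted p = 0.0885, in a range of 0.00336 to 0.243). In clone 4 the values were -0.48 (SE 0.32, adjusted p = 0.268, DESeq2) for FZD7 and -1.34 (SE 0.29, adjusted p = 2.560e-05, DESeq2) for FZD8. Between the clones FZD7 and FZD8 differed by 0.52 (SE 0.32) and 0.62 (SE 0.26), and neither passed in DESeq2 (adjusted p = 0.433 and 0.118), but with the GC correction FZD8 was called higher in clone 4 (0.73, adjusted p = 0.0313). FZD2 and FZD3 passed in no comparison, with log2 fold changes of -0.12 and -0.18 for FZD2 and 0.53 and 0.58 for FZD3 in clones 3 and 4. The GC correction turned the sign of each, to 0.16 in both clones for FZD2 and to -0.14 and -0.08 for FZD3, so neither gene has a direction here. Of the 11 receptors tested, clone 3 thus had 7 lower and 1 higher than parental cells, and clone 4 had 3 lower (FZD4, FZD8 and LRP5).

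LEF1 gave an on and off contrast between the clones. LEF1, a TCF/LEF factor that partners beta-catenin on DNA and is itself a known target of the pathway (chr4:108968701-109090112, minus strand), was at 1.01 in parental cells, 139 and 222 in clone 3, and 1.02 and 1.06 in clone 4. The values are 1 count in each parental and clone 4 library against 150 and 225 counts in clone 3. The ratio of clone 3 to parental cells was 178 (95% counting interval 31.7 to 7048; adjusted p = 2.044e-05, DESeq2), and clone 4 lay below clone 3 by 7.43 on the log2 scale (log2 fold change -7.43, SE 1.14, adjusted p = 3.450e-09, DESeq2). DESeq2 called no other TCF/LEF factor in these comparisons, and edgeR also called TCF7L1 lower in clone 3 than in parental cells (-2.18, adjusted p = 0.0201, against 0.246 in DESeq2).

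TCF7L2 had 131 in parental cells, 178 and 147 in clone 3, and 205 and 537 in clone 4. The last value stands far from the rest, and the log2 fold change of 1.50 (SE 0.49, adjusted p = 0.00899, DESeq2) in clone 4 was 0.66 without treated clone 4 (adjusted p = 0.444, the highest over 10 alternatives, the lowest being 1.232e-04). TCF7L1 went from 41.3 in parental cells to 7.41 and 10.9 in clone 3 and to 1.02 and 3.17 in clone 4, and clone 4 was called lower (ratio 0.0502, counting interval 0.0131 to 0.139; adjusted p = 0.0163, DESeq2). That call was lost without untreated clone 3 and without either library of clone 4, and without treated clone 3 no adjusted p was given. TCF7, at 33.2 in parental cells and 8.14 to 25.9 in the EIR libraries, was not called by DESeq2 (adjusted p = 0.241 in clone 4), whereas edgeR called it lower in clone 4 (-1.68, adjusted p = 0.0337). TCF7 overlaps SKP1, which had far more counts, on the opposite strand, and the reservation on strand given for FZD4 applies.

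Among the ligands, WNT10A had 10.1 in parental cells, 129 and 180 in clone 3, and 0 in both libraries of clone 4. WNT10A activates beta-catenin signalling and lies next to WNT6 on chromosome 2 (chr2:219745574-219764303 and chr2:219724528-219738955, both plus strand). In clone 3 WNT10A was 15.2-fold higher than in parental cells (counting interval 8.18 to 32.1; adjusted p = 6.568e-06, DESeq2), and without treated clone 3 the adjusted p was 0.0563, the highest over 10 alternatives (lowest 3.125e-07). In clone 4, with the floor of 3 counts per library, it was at least 3.24-fold lower than in parental cells (adjusted p = 0.00254, DESeq2) and at least 49.3-fold lower than in clone 3. Between the clones DESeq2 gave an adjusted p of 0.123 and edgeR 5.421e-04.

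WNT6 had 27.2 in parental cells, 14.8 and 15.8 in clone 3, and 0 and 1.06 in clone 4. The ratio of clone 4 to parental cells was 0.0191 (counting interval 0.000466 to 0.116) and was called (adjusted p = 0.0165, DESeq2), with the GC-corrected adjusted p at 0.0545 in a range of 9.662e-04 to 0.101 over the 7 alternatives that gave one. WNT6 was lowest in clone 4, where its neighbour WNT10A had no count. WNT7B had 301 in parental cells, 356 and 372 in clone 3, and 154 and 207 in clone 4, a difference between the clones of -1.03 (SE 0.32, adjusted p = 0.0163, DESeq2) that was not called without either library of clone 3. Against parental cells WNT7B in clone 4 was at -0.74 (SE 0.34, adjusted p = 0.0856, DESeq2), with an adjusted p of 0.0311 in edgeR and 0.751 with the GC correction (-0.17). WNT5A was lower than in parental cells in each clone, at -2.38 (SE 0.22) in clone 3 and -2.88 (SE 0.22) in clone 4, and RSPO3 at least 41.1-fold and 58.7-fold higher. The difference between the clones was -0.50 (SE 0.25, adjusted p = 0.265, DESeq2) for WNT5A and 0.43 (SE 0.43, adjusted p = 0.743, DESeq2) for RSPO3.

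**Figure D3:**
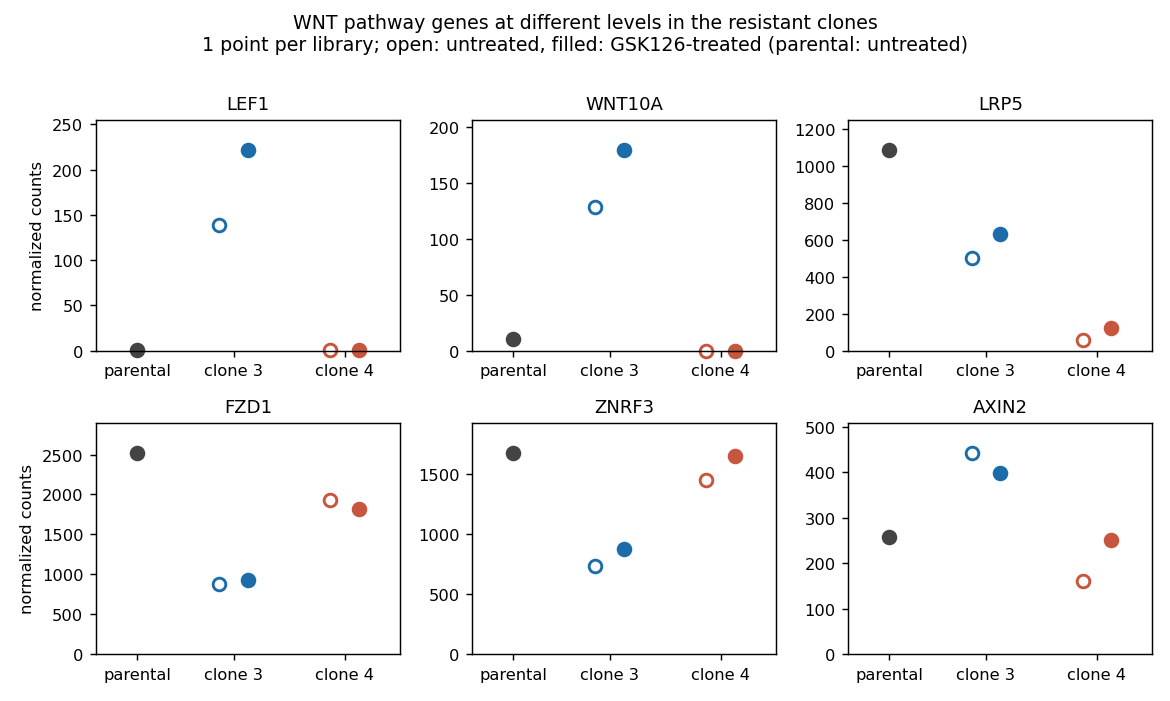
Normalized counts of 6 WNT pathway genes whose levels differed between the clones, with 1 point per library (dark grey parental, blue clone 3, red clone 4; open untreated, filled treated with GSK126) and each axis starting at 0. LEF1 and WNT10A are present in clone 3 and at 0 to 1.06 in clone 4, LRP5 steps down from parental cells to clone 3 to clone 4, and FZD1 and ZNRF3 lie nearer to parental cells in clone 4.

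The feedback inhibitors were not uniform between the clones. AXIN2, a widely used readout of beta-catenin activity, had 258 in parental cells, 443 and 398 in clone 3, and 160 and 252 in clone 4. Clone 3 lay above the parental value and clone 4 below it, without either contrast passing (0.71, SE 0.36, adjusted p = 0.129, and -0.33, SE 0.36, adjusted p = 0.537, DESeq2). With the GC correction AXIN2 was called higher in clone 3 than in parental cells (0.99, adjusted p = 0.0222), and its value in clone 4 was 0.02. Clone 4 against clone 3 was -1.07 (SE 0.32, adjusted p = 0.0131, DESeq2). That call was lost without either untreated library or treated clone 3 (range over 11 alternatives 6.755e-05 to 0.297). NKD2, an inhibitor that binds Dishevelled, had 5.04 in parental cells, 34.3 and 42.5 in clone 3, and 4.07 and 3.17 in clone 4. The ratio of clone 4 to clone 3 was 0.0949 (counting interval 0.0370 to 0.205; adjusted p = 0.0237, DESeq2), a call lost without either library of clone 3. NKD2 in clone 3 against parental cells did not pass in DESeq2 (adjusted p = 0.0667), but it did with the GC correction (adjusted p = 0.0282) and in edgeR (adjusted p = 0.00629).

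ZNRF3, the homolog of RNF43, had 1671 in parental cells, 728 and 875 in clone 3, and 1449 and 1642 in clone 4. It was lower in clone 3 than in parental cells (-1.06, SE 0.22, adjusted p = 1.318e-05, DESeq2) and higher in clone 4 than in clone 3 (0.94, SE 0.20, adjusted p = 7.664e-05, DESeq2), the latter not called without untreated clone 3. RNF43, by contrast, had similar values in the clones, at 2.76 (SE 0.32) and 3.03 (SE 0.32) above parental cells on the log2 scale, with a difference between them of 0.25 (SE 0.26, adjusted p = 0.748, DESeq2). NKD1 had 24.2 in parental cells and 16.3 to 50.8 in the EIR libraries and was not called.

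Between the clones, DKK1 was higher in clone 4 by 0.92 (SE 0.19, adjusted p = 6.331e-05, DESeq2), a call lost without untreated clone 3 or either library of clone 4, and DKK3 lower by 2.34 on the log2 scale (log2 fold change -2.34, SE 0.38, adjusted p = 5.346e-08, DESeq2). Against parental cells, DKK1 was 0.81 (SE 0.25) in clone 3 and 1.70 (SE 0.25) in clone 4, and DKK3 was -2.63 (SE 0.27) and -4.96 (SE 0.29). SFRP1, which binds WNT ligands directly, had 278 in parental cells, 113 and 128 in clone 3, and 188 and 242 in clone 4. Clone 3 was lower than parental cells (-1.20, SE 0.39, adjusted p = 0.0105, DESeq2), and the call was lost without either library of clone 3, with adjusted p of 0.203 and 0.129 (range over 10 alternatives 0.00337 to 0.203). Between the clones edgeR called SFRP1 higher in clone 4 (0.82, adjusted p = 0.0492), and DESeq2 did not. In the destruction complex the clones had near equal values for APC (1.23 and 1.30) and AXIN1 (-0.93 in each clone, or -0.50 and -0.40 with the GC correction, where neither passed), and CTNNB1 was called in clone 3 (-0.58, SE 0.15, adjusted p = 0.00109, DESeq2) and not in clone 4 (-0.30, SE 0.15, adjusted p = 0.126, DESeq2). The difference of CTNNB1 between the clones was 0.27 (SE 0.16, adjusted p = 0.378, DESeq2).

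**Figure D4:**
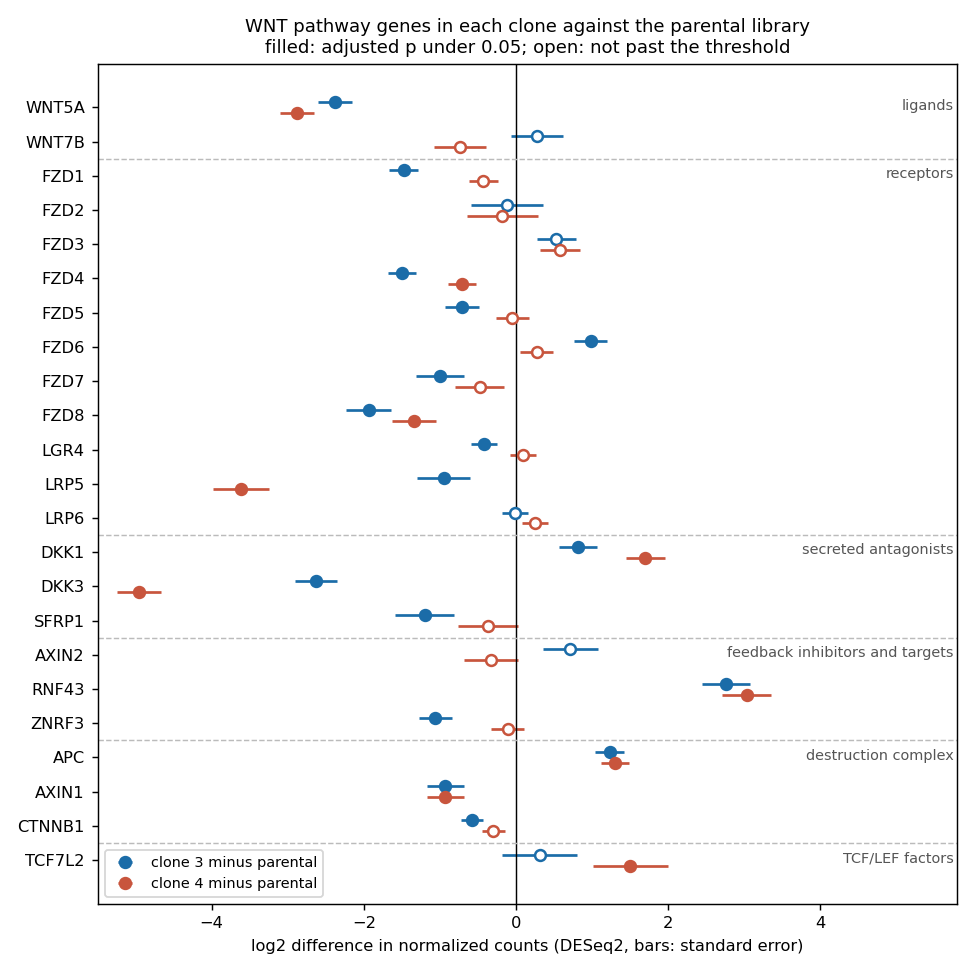
Log2 differences in normalized counts from the parental library for clone 3 (blue) and clone 4 (red) by role, for the well measured genes other than RSPO3, with bars for the standard error from DESeq2 and filled symbols for an adjusted p under 0.05. WNT5A, FZD8, DKK3 and AXIN1 lie left of 0 in each clone, RNF43 and APC right of it, and the clones lie far apart at LRP5 and DKK3.

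Treatment with GSK126 was compared with no treatment within the EIR cells, 2 libraries against 2. DESeq2 called 0 of 42 tested genes, beside 0.00335% of all genes, and edgeR called 0 of 43 (0% of all genes). In both tests 0 of the listed genes had an unadjusted p under 0.05. The clone number pairs the libraries, and with the clone as a block DESeq2 again called 0 (0.0134% of all genes) while 2 listed genes had an unadjusted p under 0.05. For the 24 well measured genes, the log2 ratio of the treated to the untreated library ran from -0.27 to 0.70 in clone 3 (median 0.13) and from -0.24 to 1.38 in clone 4 (median 0.175). No gene was past 2-fold in clone 3, and in clone 4 there were 3, TCF7L2 (1.38, against -0.27 in clone 3), LRP5 (1.11, against 0.33) and RSPO3 (1.05, against -0.08). Each ratio rests on 1 library against 1 and has no replicate check of its own.

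**Figure D5:**
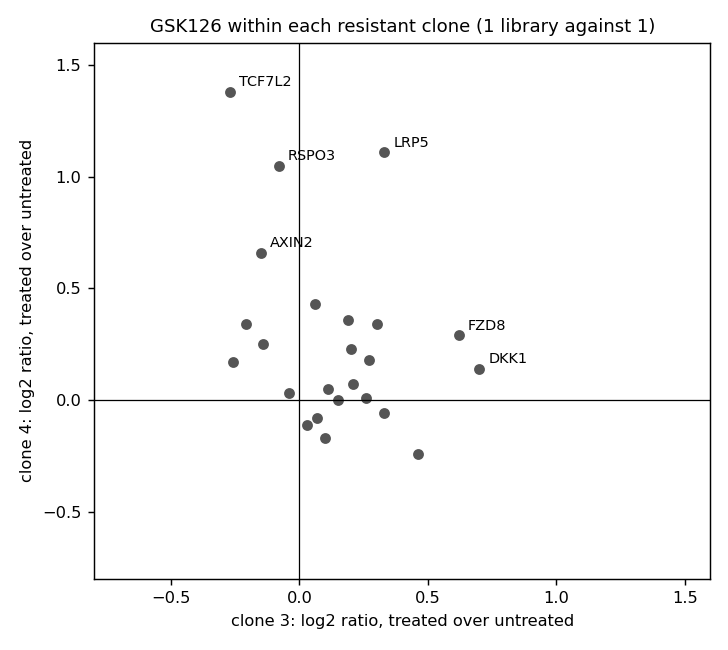
Log2 ratio of the GSK126-treated to the untreated library in clone 3 (horizontal axis) and clone 4 (vertical axis), with 1 point for each of the 24 well measured WNT pathway genes and no error bars, since each ratio compares 1 library with 1. TCF7L2, LRP5 and RSPO3 are past 2-fold in clone 4 at 1.38, 1.11 and 1.05, and no gene is past 2-fold in clone 3.

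In all, 26 of the 43 genes were called by DESeq2 in at least 1 of the 5 comparisons, 21 of them well measured and 5 at a lower mean (LEF1, WNT10A, WNT6, TCF7L1 and NKD2). The 17 genes that DESeq2 called in none were FZD2, FZD3 and LRP6, which were well measured, and 14 at lower means. WNT2B, WNT3, WNT5B, TCF7, NKD1 and NOTUM had more than 10 counts in some library, and the remaining 8 never did, so a change in those 8 was not detectable at this depth. WNT2B, at 106 in parental cells and 70.2 to 118 in the EIR libraries, overlaps ST7L on the opposite strand. WNT3, another beta-catenin ligand, had 23.2 in parental cells and 1.06 to 10.2 in the EIR libraries, and NOTUM, an enzyme that inactivates WNT ligands, had 15.1 and 0 to 9.52. Among these 17, edgeR called WNT3 in clone 4 (-3.12, adjusted p = 0.0152) and NOTUM in clone 3 (-4.67, adjusted p = 0.0166) lower than in parental cells, beside TCF7 as given above, all at low counts.

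A longer list of 82 other WNT pathway genes, of which 77 were in the table, was read in the same fits. In EIR against parental cells 21 of 58 tested genes were called, or 36.2% (7 higher and 14 lower). Of all genes 25.5% were called, as given above (12.4% higher and 13.2% lower). With the GC correction 16 of 58 were called, or 27.6% (6 higher and 10 lower), beside 19.5% of all genes. The lower genes lay mostly in the cytoplasmic relay (7 of 14 tested, all lower, among them DVL1, DVL2 and FRAT2) and in the nuclear cofactors (4 of 12 tested, all lower). With the GC correction 5 genes of the relay, without DVL2, and 1 nuclear cofactor (CTNNBIP1) were called lower, beside 9.24% of all genes. In edgeR there were 4 and 1, beside 3.6% of all genes called lower. The count among the nuclear cofactors was thus not kept, and with the GC correction its 8.33% lay near the share of all genes. Planar polarity genes and alternative receptors had 3 higher and 2 lower of 12 tested. With the GC correction they had 2 higher and 3 lower, with DAAM1 lost and RYK gained as lower. In edgeR they had 2 higher and 3 lower of 15, so the balance of directions was not kept. The further targets had 2 higher of 11 (CCND1 and TNFRSF19), and the further antagonists 1 higher (SOSTDC1) and 1 lower (KREMEN1) of 5. Of the further targets edgeR called 0 of 14, with 3 at an unadjusted p under 0.05, and the GC correction called CCND1 and ID2 and not TNFRSF19. These named genes of the longer list, beside those below, were chosen after their values were seen.

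WLS, the carrier that brings WNT ligands to the cell surface, had 139 in parental cells, 797 and 845 in clone 3, and 838 and 931 in clone 4. The log2 fold change was 2.62 (SE 0.22, adjusted p = 1.421e-28, DESeq2), with little difference among the EIR libraries. CCND1, which encodes cyclin D1 and is a known target, had 4316 in parental cells, 13539 and 16711 in clone 3, and 5792 and 8709 in clone 4 (1.37, SE 0.53, adjusted p = 0.0409, DESeq2), with the clone 3 libraries above those of clone 4, and edgeR did not call it. PRICKLE1, of the planar polarity pathway, had 745 in parental cells, 1217 and 1345 in clone 3, and 1581 and 2063 in clone 4. Its relative PRICKLE2 had 424 in parental cells, 905 and 937 in clone 3, and 805 and 892 in clone 4. Both lay above the parental value in every EIR library, with log2 fold changes of 1.06 (SE 0.34 and 0.20, adjusted p = 0.0117 and 2.323e-06, DESeq2), and edgeR called PRICKLE2 and not PRICKLE1. PRICKLE1 overlaps PPHLN1, which had more counts, on the opposite strand, and the reservation on strand given for FZD4 applies.

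FRAT2, a protein that binds GSK3, fell from 525 in parental cells to 87.0 and 90.9 in clone 3 and to 77.3 and 91.0 in clone 4 (log2 fold change -2.60, SE 0.29, adjusted p = 8.926e-17, DESeq2). TLE2, a corepressor of TCF/LEF factors, fell from 471 to 154 and 115 in clone 3 and to 24.4 and 25.4 in clone 4 (-2.57, SE 1.01, adjusted p = 0.0459, DESeq2), and with the GC correction and in edgeR it was not called. CELSR3, an atypical cadherin of the planar polarity family, had 400 in parental cells, 99.1 and 128 in clone 3, and 93.6 and 88.9 in clone 4. CTNNBIP1, which binds beta-catenin and blocks its contact with TCF/LEF factors, had 976 in parental cells, 338 and 400 in clone 3, and 433 and 344 in clone 4. Both genes were lower in every EIR library, with log2 fold changes of -1.96 (SE 0.35) and -1.37 (SE 0.25), with adjusted p of 7.277e-07 and 1.690e-06 in DESeq2.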

How the data were processed

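RNA-seq was measured in 5 libraries of TOV21G cells prepared from total RNA. Per the labels and methods, the authors aligned reads with Bowtie2 to hg19, estimated gene counts with RSEM (version 1.2.3 in the submitters' processing notes; the methods give another) and tested with DESeq2. The Ensembl release and strand setting are not given in the sources used here. The deposited values are expected counts rounded to whole numbers, with no columns left unused. Groups came from the labels, 1 parental library and untreated and treated libraries of clones 3 and 4.

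Identifiers were matched to GENCODE release 44 mapped to GRCh37 (95.82% of 30476, with 3.058% of counts unmatched). DESeq2 1.42.0 (R 4.3.3) was run on all genes with median-of-ratios factors and two-sided Wald tests, and genes were called at a Benjamini-Hochberg adjusted p under 0.05 over all genes. Fits used all 5 libraries for EIR against parental and for each clone against parental, and the 4 EIR libraries for clone 4 against clone 3 (with treatment as covariate) and for GSK126. The clone is the same line in both treatments, so the clone number pairs the libraries. Deviations from the treatment means correlated at 0.862 over 11564 genes. This is 1 value for both clones, since with 2 libraries per treatment their deviations mirror each other. Alternatives were edgeR 4.0.16, TMM and total count scaling, at least 10 counts in at least 2 libraries, factors corrected for transcript GC (lowess span 0.3), an absolute log2 fold change of at least 1, single libraries left out, summed clones, no treatment covariate and the clone block. The tests were tested on simulated data. Counting intervals (95%, exact) and the floor of 3 counts cover counting error only. Ratios within a clone used a pseudocount of 0.5.

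The genes and lists were chosen with earlier results of these data known. Per-library values are given for every listed gene called in any comparison, and for the other list for up to 4 genes that rose and 4 that fell most in EIR against parental cells among those called with a mean of at least 100. Promoter windows are from RefSeq (GRCh38.p14), and no coordinates were converted between builds.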

Additional observations from a re-analysis of the deposited data

Results flagged for a closer look

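RSPO3 in treated clone 4 (241 normalized counts) stood apart from the other 3 EIR libraries, with a gap of 0.906 of the range, above Dixon's 95% critical value for 4 samples. TCF7L2 in the same library (537) did so with 0.851. Chance flags about 1 group in 20, and the 4 libraries come from 2 clones and 2 treatments.

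The clones differed in DESeq2's direct test of clone 4 against clone 3 for 13 listed genes. On the log2 scale clone 4 was higher for FZD1 (1.04), ZNRF3 (0.94), DKK1 (0.92), FZD4 (0.78), FZD5 (0.65) and LGR4 (0.51). Clone 4 had lower values for LEF1 (-7.43), NKD2 (-3.41), LRP5 (-2.76), DKK3 (-2.34), AXIN2 (-1.07), WNT7B (-1.03) and FZD6 (-0.71). EPCAM, an epithelial marker, moved with these differences (398 counts in parental cells, 426 and 498 in clone 3, 0 and 1 in clone 4). Its part in them was not tested.

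The log2 ratios of treated to untreated libraries had opposite signs in the clones for TCF7L2 (1.38 in clone 4, -0.27 in clone 3) and RSPO3 (1.05 and -0.08, the latter close to 0). Neither gene was called for GSK126, and the difference between the clones was not tested, with 1 library in each cell.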

How the results depend on the processing

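No call turned direction in the alternatives run. In EIR against parental cells the GC correction left 4 called genes in place of 9, and leaving out single libraries gave 7 to 8. A minimum absolute log2 fold change of 1 left 12 of 20 in clone 3 against parental cells and 7 of 13 in clone 4 against clone 3, by its own construction. Leaving out single libraries gave 10 to 19 in clone 3 against parental cells, with 13 without untreated and 10 without treated clone 3. It gave 11 to 14 in clone 4 against parental cells. It gave 7 to 13 in clone 4 against clone 3, in fits chosen after seeing the data without the treatment covariate, since 3 libraries leave no residual degree of freedom with it. The clone that lost a library then rests on 1 library, assumed to vary like the rest. For all fits with a library left out, the share of all genes called was not taken. A fall in these counts therefore cannot be told apart from a fall over all genes. The replicate block gave 0 called genes for GSK126 treatment in DESeq2, and 0 in edgeR (an alternative chosen after seeing the data), so the pairing changed no call. Across the single calls, outside the left-out libraries, 13 of 63 values in EIR against parental cells lost the threshold, 13 of 120 in clone 3, 4 of 82 in clone 4 and 8 of 91 between the clones. The causes of the lost calls were not tested. With 1 parental library, contrasts with parental cells rest on the spread of EIR libraries. Genes with at most 10 counts in every library could not be resolved at this depth.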
